A study of Homo sapiens with 6 samples.

Results

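The mitochondrial genome of human cells encodes 13 mRNAs and 2 rRNAs, and nuclear genes supply the proteins that copy, transcribe and process it. These 15 transcripts and 23 such nuclear genes make up the 38 genes described here, out of 35430 in the deposited table. They form a list of names that was drawn up with earlier results of these data known, and all 38 passed the filter on low counts. The cells are LNCaP, a human prostate cancer line that responds to androgen. Palbociclib, an inhibitor of the cell cycle kinases CDK4 and CDK6, was given at 0.5 µM for 1 week in 3 libraries, and 3 libraries came from control cells of the same line. The sources used here give neither culture time nor vehicle for the controls, so time in culture and the drug cannot be told apart. They also do not say whether libraries of a group came from separate cultures, so p-values reflect the spread between libraries alone, and that spread may be technical. Per the series title, the study asked about ferroptosis through TRIB3, SOX2 and SLC7A11; the title does not name the mitochondrial genome.

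Both strands of the mitochondrial DNA are transcribed almost whole, by the single-subunit polymerase POLRMT with the promoter factors TFAM and TFB2M. The long transcripts are punctuated by tRNAs, and cutting the tRNAs out at both ends sets most of the mRNAs and rRNAs free. The released RNAs then receive short tails and are kept or destroyed at very different rates, so neighbours on the same precursor reach different levels.

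Several of these transcripts share bases or touch a tRNA, which bears on how their counts are read. The 3 stretches here show it, as they stand in the mitochondrial chromosome of hg38 (plus strand, the strand read as MT-CO1 and most other mRNAs). The first covers MT:8507-8592, where the end of MT-ATP8 is also the start of MT-ATP6, and capitals mark the 46 shared bases. The second covers MT:10740-10786, where capitals mark the 7 bases shared by MT-ND4L and MT-ND4. The third covers MT:9971-10078, where the capitals are the glycine tRNA MT-TG, 68 bases that separate MT-CO3 from MT-ND3 on the precursor.
MT-ATP8 and MT-ATP6: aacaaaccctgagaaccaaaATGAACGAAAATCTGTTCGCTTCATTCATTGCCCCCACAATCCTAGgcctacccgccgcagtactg
MT-ND4L and MT-ND4: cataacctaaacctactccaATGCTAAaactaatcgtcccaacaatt
MT-CO3, MT-TG and MT-ND3: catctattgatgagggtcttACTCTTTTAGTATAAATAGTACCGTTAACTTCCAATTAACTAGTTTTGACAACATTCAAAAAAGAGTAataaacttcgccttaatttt
The shared bases are 22.2% of MT-ATP8, 6.75% of MT-ATP6, 2.36% of MT-ND4L and 0.51% of MT-ND4. Each of these pairs sits on a single mature RNA, so the separate counts of its members were not independent measurements.

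The libraries held 57082715 to 78117945 estimated counts. About 4 of these may stand for a fragment, which is inferred only from how often small values occurred. A gene was called higher or lower when its adjusted p was under 0.05 in edgeR's quasi-likelihood test, adjusted by the Benjamini-Hochberg method over the 21218 genes tested. Log2 fold changes are palbociclib over control and are given ± SE, and mean levels ± SD over 3 libraries. By the call rule 20.1% of all tested genes were called higher with palbociclib and 18.5% lower. Scaling between libraries used TMM, a trimmed mean of M-values. Scaling by library size without TMM shifted the median gene by -0.11 on the log2 scale and gave 3094 higher and 5479 lower in place of 4270 and 3921. The 12 genes listed as LNCaP identity markers were above 1 CPM (counts scaled to a common library total) in every library, with 9 called higher, 2 lower and a median log2 fold change of 0.38. Summed over 10 markers of other cell types, levels were 36.7 to 39.7 CPM with palbociclib and 39.7 to 46.1 CPM in control, and 5 of the 10 stayed below 1 CPM in every library. Of the others, COL1A1, a collagen of fibroblasts, averaged 29.2 CPM with palbociclib and 26.0 CPM in control. Called lower were VWF, of endothelium, at 5.71 CPM with palbociclib and 11.4 CPM in control, and PTPRC, of leukocytes, at 0.470 CPM with palbociclib and 1.19 CPM in control. In bulk RNA, fewer cells of a type and less RNA per cell cannot be told apart. The part of the marker differences in the results was not tested.

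The transcripts of the mitochondrial genome were higher after palbociclib as a body. Of the 15, 13 were called higher, beside 20.1% of all tested genes, 0 were called lower, beside 18.5%, and 2 were not called, with a median log2 fold change of 0.44, against -0.03 over all genes tested. With library size alone the counts were again 13 and 0, with a median of 0.33, whereas limma on log2(FPKM + 1) called 4 with its mean-variance trend and 12 without it. The higher calls included 6 of 7 mRNAs of complex I (the entry point of the respiratory chain), MT-CYB of complex III, all 3 of complex IV, both of ATP synthase and the large rRNA. In 14 of the 15 the palbociclib and control libraries did not overlap in CPM, with palbociclib above, which was also true of 25.7% of all tested genes.

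As a share of each library, the 15 transcripts held 7.00%, 7.38% and 7.36% of all counts with palbociclib, against 5.63%, 5.98% and 6.10% in control. All 3 palbociclib libraries lay above all 3 control libraries. The means were 7.25% ± 0.215 with palbociclib and 5.90% ± 0.247 in control (SD, n = 3 each; exact permutation test over libraries, two-sided, p = 0.1, the smallest that 3 against 3 can give). The 13 mRNAs alone held 5.89% ± 0.181 of counts with palbociclib and 4.71% ± 0.182 in control (SD, n = 3 each; exact permutation p = 0.1). By summed FPKM (fragments per kilobase of exon at a common number of mapped fragments), which weights short transcripts more, the 15 held 24.9% ± 0.782 with palbociclib and 21.2% ± 0.825 in control (SD, n = 3 each).

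Per length, levels spread over more than an order of magnitude within the same genome. MT-CO1, the catalytic subunit of cytochrome c oxidase, was the highest at 12036 ± 149.7 FPKM with palbociclib and 9153 ± 283 FPKM in control. The large rRNA MT-RNR2 followed at 7451 ± 206 FPKM with palbociclib and 6388 ± 450.4 FPKM in control. MT-CO3 and MT-CO2, the other core subunits of cytochrome c oxidase, came next with palbociclib. MT-CO3 was at 7105 ± 543 FPKM with palbociclib and 5587 ± 333 FPKM in control. MT-CO2 was at 6887 ± 397 FPKM with palbociclib and 5404 ± 259 FPKM in control. Their ranges of mean ± SD overlapped, but MT-CO3 was above MT-CO2 within every library. With palbociclib the ranges of MT-RNR2 and MT-CO3 overlapped too, and MT-RNR2 was above MT-CO3 within every palbociclib library. The lowest were MT-ND6, the only mRNA of the opposite strand, at 707 ± 27.7 FPKM with palbociclib and 564 ± 67.9 FPKM in control, and MT-ND3, a small complex I subunit, at 699 ± 41.5 FPKM with palbociclib and 548 ± 53.4 FPKM in control. The order of these lowest members changed between libraries, with MT-ND6 above MT-ND3 in palbociclib library 3 and below it in palbociclib libraries 1 and 2. Even MT-ND6 and MT-ND3 stood far above the highest nuclear member, TFB2M, at 30.8 ± 1.10 FPKM with palbociclib and 28.5 ± 1.22 FPKM in control. Libraries were made with oligo-dT beads, so the level of a transcript and the length of its tail cannot be told apart in any of these values.

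**Figure D1:**
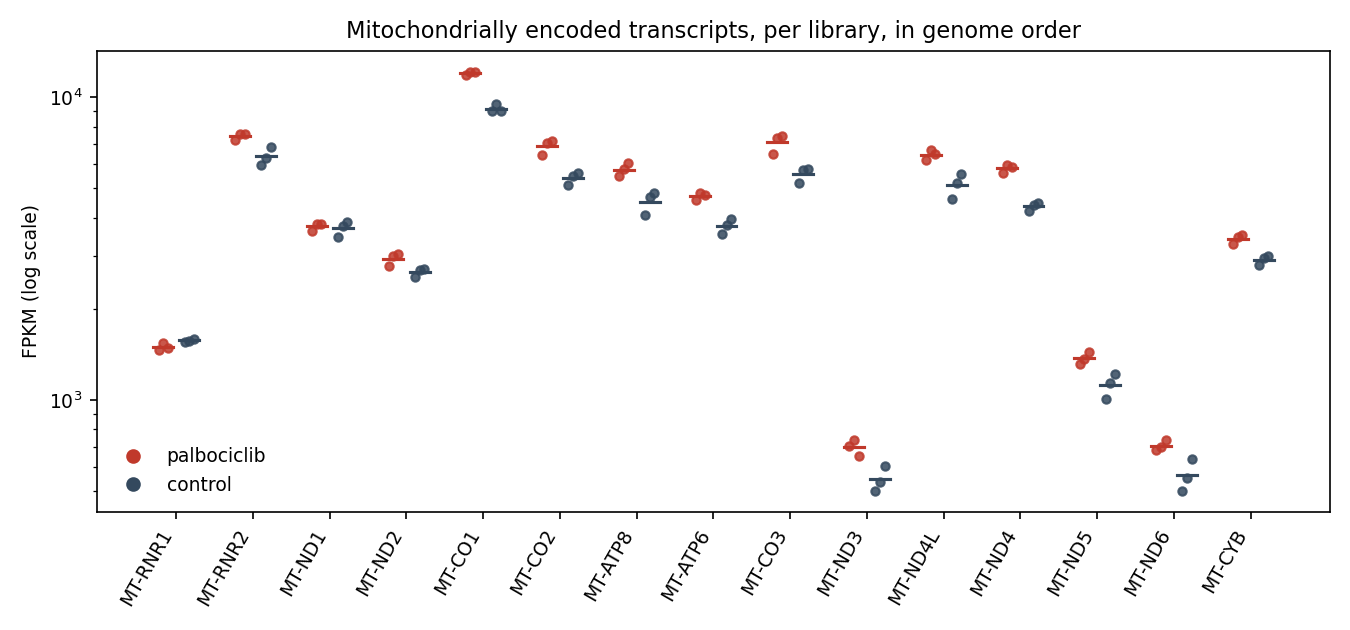
FPKM per library (log axis) of the 15 mitochondrially encoded members in genome order, with palbociclib (red) left of control (blue); points are libraries and lines are means of 3. The red points lie above the blue ones without overlap for 13 members, overlap them for MT-ND1 and lie below them for MT-RNR1.

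Estimated changes were higher from MT-CO1 onwards than before it. MT-CO1 (MT:5904-7445) had 19791, 20130.3 and 20145 CPM with palbociclib, against 13897, 14537 and 13906 CPM in control. The groups stood far apart, and the libraries within each differed little. The log2 fold change was 0.50 ± 0.031 (edgeR, adjusted p = 4.66e-06). MT-ND4 (MT:10760-12137), a membrane subunit of complex I, had 8401, 8888 and 8741 CPM with palbociclib, against 5815, 6056 and 6213 CPM in control. Again no library crossed over, and the log2 fold change was 0.53 ± 0.037 (edgeR, adjusted p = 1.10e-05).

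The mRNAs between and after these changed by similar amounts. MT-CO2 changed by 0.46 ± 0.050 on the log2 scale, MT-CO3 by 0.46 ± 0.061, MT-ATP8 by 0.46 ± 0.063 and MT-ATP6 by 0.44 ± 0.046; the ATP genes encode membrane subunits of ATP synthase. Among complex I mRNAs, MT-ND3 changed by 0.46 ± 0.074, MT-ND4L by 0.44 ± 0.066 and MT-ND5 by 0.40 ± 0.068. MT-CYB, the cytochrome b of complex III and the last mRNA of the heavy strand transcript, changed by 0.34 ± 0.039. All 8 were called higher by edgeR's quasi-likelihood test, with adjusted p from 1.03e-04 to 1.72e-03.

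For the genes nearer the heavy strand promoter the estimates were smaller, although MT-RNR2 and MT-CYB did not differ beyond their SEs. The small rRNA MT-RNR1 (MT:648-1601) had 1505, 1583 and 1522 CPM with palbociclib, against 1483, 1490.3 and 1529.8 CPM in control. These values overlapped, and the log2 fold change was 0.03 ± 0.034 (edgeR, adjusted p = 0.479). In FPKM, which is scaled by mapped fragments, MT-RNR1 was instead lower without overlap, at 1459, 1538 and 1483 FPKM with palbociclib, against 1552, 1571 and 1597 FPKM in control, and library size alone gave a log2 fold change of -0.08, so its direction turned with the scaling. The large rRNA MT-RNR2 (MT:1671-3229) had 12165, 12755 and 12673 CPM with palbociclib, against 9347, 9773 and 10765 CPM in control, and its log2 fold change was 0.33 ± 0.051 (edgeR, adjusted p = 9.96e-04).

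MT-ND1 (MT:3307-4262), the first mRNA of the transcript and a core membrane subunit of complex I, had 3729, 3920.5 and 3932 CPM with palbociclib, against 3313, 3562 and 3719 CPM in control. The groups were just separate in CPM and overlapped in FPKM, and the log2 fold change of 0.13 ± 0.046 was not called (edgeR, adjusted p = 0.0566). Without control library 3, MT-ND1 was called, at 0.17 (edgeR, adjusted p = 0.0160). It was called as well with the replicate block (edgeR, adjusted p = 0.0438) and with the DESeq2 Wald test (DESeq2, adjusted p = 0.0126). MT-ND2 (MT:4470-5511), its neighbour and another complex I subunit, was called higher by 0.26 ± 0.043 (edgeR, adjusted p = 1.52e-03). The MT-ND2 call was lost in all 3 limma fits on FPKM (limma, adjusted p from 0.0688 to 0.290).

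**Figure D2:**
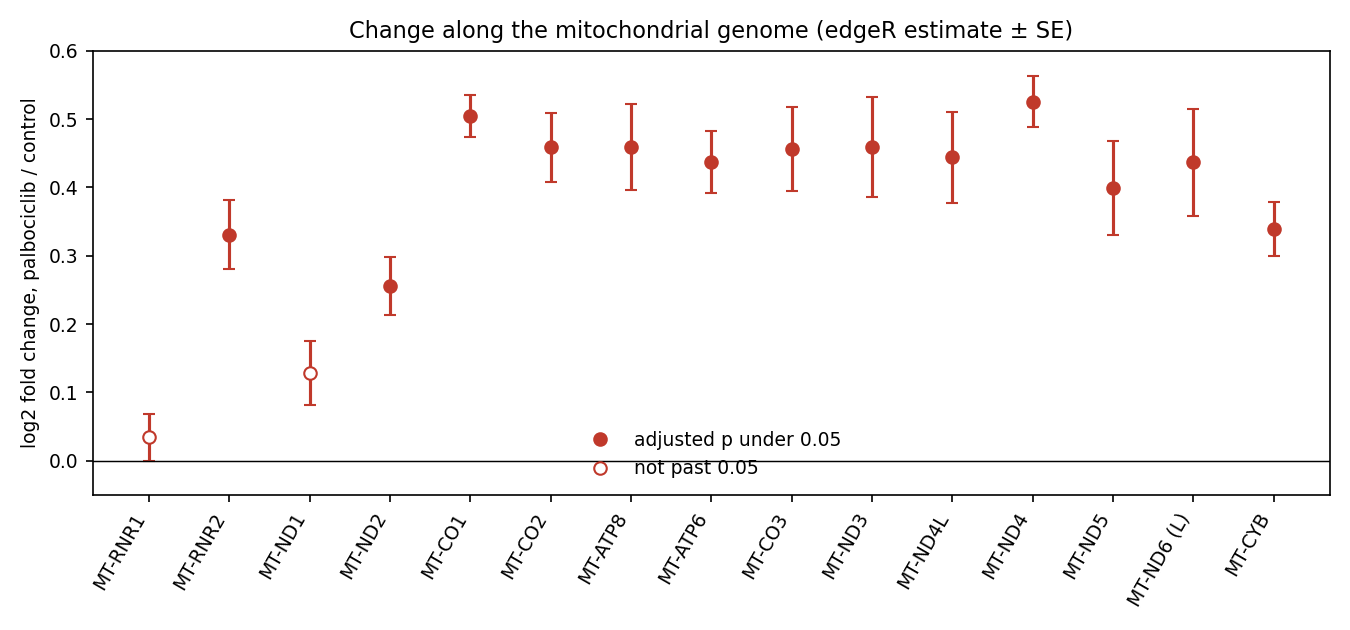
Log2 fold change (palbociclib over control, edgeR estimate ± SE) of the 15 members in genome order; filled points had an adjusted p under 0.05, and (L) marks the light strand transcript. The first 4 genes from the promoter lie between 0.03 and 0.33, and the 10 mRNAs from MT-CO1 to MT-CYB on the heavy strand, with MT-ND6, between 0.34 and 0.53.

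Ratios within a library do not depend on the scaling between libraries, and they showed the same unevenness. The log2 ratio of MT-CO1 to MT-ND1 in FPKM was 1.72, 1.67 and 1.67 with palbociclib, against 1.38, 1.34 and 1.21 in control. The log2 ratio of MT-ND4 to MT-ND1 was 0.64, 0.65 and 0.63 with palbociclib, against 0.28, 0.24 and 0.21 in control. Between the rRNAs, the log2 ratio of MT-RNR2 to MT-RNR1 was 2.31, 2.30 and 2.35 with palbociclib, against 1.95, 2.00 and 2.11 in control. In all 3 ratios the groups did not overlap; they were picked after the values were seen and are given without a test.

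The log2 ratio of both rRNAs to the heavy strand mRNAs in FPKM was -2.77 ± 0.019 with palbociclib and -2.62 ± 0.041 in control, a difference of -0.15 with no overlap (SD, n = 3 each; exact permutation test, two-sided, p = 0.1). MT-ND6, a complex I subunit transcribed from the light strand promoter, had 389, 395 and 417 CPM with palbociclib, against 264, 288 and 336 CPM in control, and was called higher by 0.44 ± 0.079 (edgeR, adjusted p = 2.30e-03). Its log2 ratio to the heavy strand mRNAs was -6.43 ± 0.041 with palbociclib and -6.44 ± 0.113 in control, a difference of 0.01 (SD, n = 3 each; exact permutation test, two-sided, p = 0.9). The groups of that ratio overlapped, with control library 3 the highest of the 6 at -6.31. Since strandedness is not stated, reads of MT-ND6 and reads of the opposite strand at the same place cannot be told apart.

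As shares of the summed FPKM of the 13 mRNAs, 4 members had groups that did not overlap. MT-ND1 made up 6.11%, 6.05% and 6.05% with palbociclib, against 7.43%, 7.44% and 7.55% in control. MT-ND2 averaged 4.75% ± 0.0585 with palbociclib and 5.36% ± 0.108 in control, and MT-CYB 5.53% ± 0.0334 with palbociclib and 5.89% ± 0.106 in control (SD, n = 3 each). MT-ND4 was above control instead, at 9.47% ± 0.115 with palbociclib and 8.86% ± 0.161 in control (SD, n = 3 each). The other 9 mRNAs overlapped. Each of the 4 had an exact permutation p of 0.1, the smallest possible with n = 3 each, and 0.325 after Benjamini-Hochberg adjustment over the 13, so none passed. The share of MT-CO1 overlapped, at 19.5% ± 0.503 with palbociclib and 18.6% ± 0.933 in control (SD, n = 3 each; exact permutation p = 0.3).

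**Figure D3:**
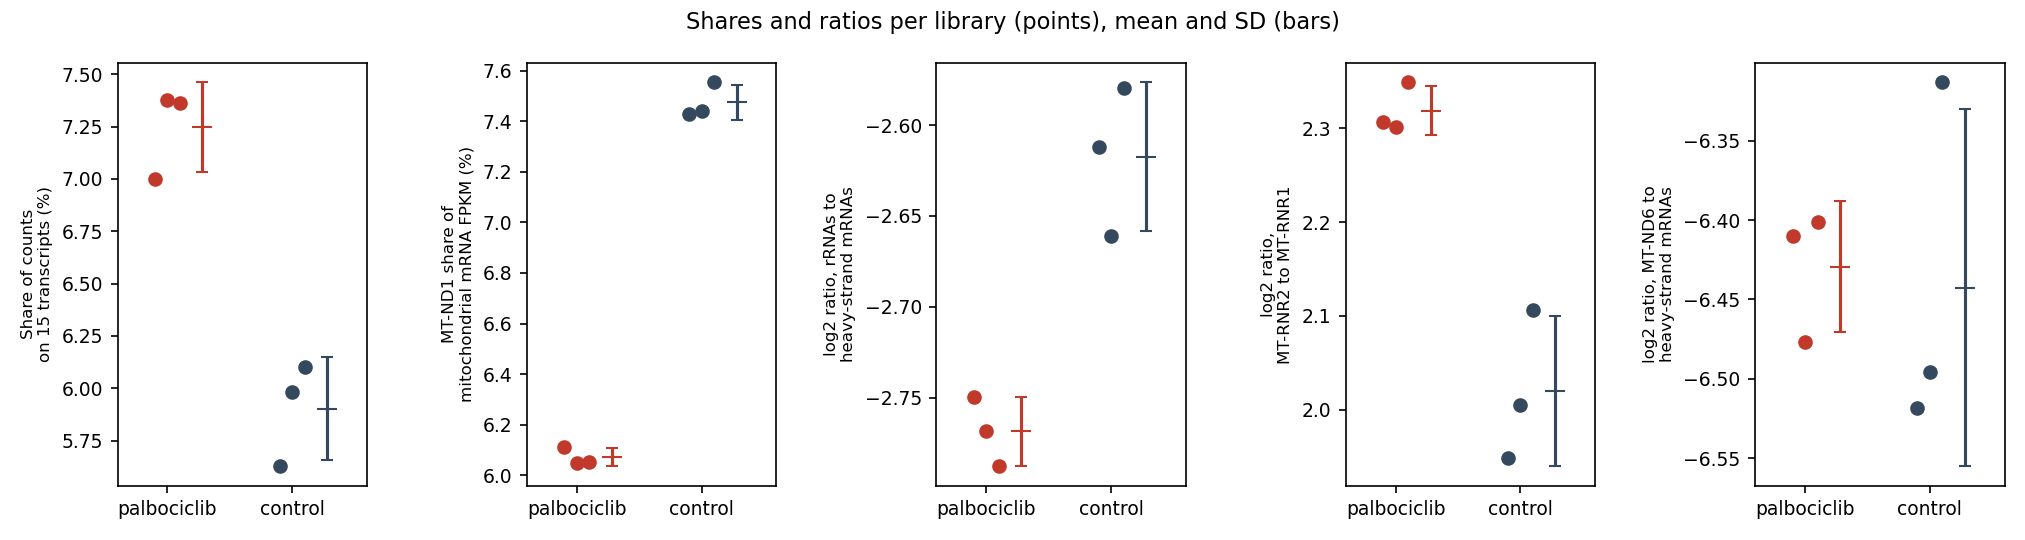
Per-library shares (percent) and log2 ratios in FPKM (share of counts in the first panel), with palbociclib left of control; points are libraries and bars are mean and SD of 3. The first 4 panels show groups that do not overlap, and the last, MT-ND6 to heavy strand mRNAs, overlaps around -6.43 and -6.44; axes do not start at 0.

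The 22 mitochondrial tRNAs were not among the members and were picked after their values were seen. Of the 22, 17 were called higher, beside 20.1% of all tested genes, and 0 lower, beside 18.5%, with a median log2 fold change of 0.42. Their counts may hold reads of uncut precursors, which was not tested. All 8 tRNAs of the light strand were called higher, among them MT-TP, the proline tRNA, by 0.75 ± 0.089 (edgeR, adjusted p = 2.28e-04). Of the 14 on the heavy strand 9 were called higher. The glycine tRNA MT-TG, whose place between MT-CO3 and MT-ND3 is shown above, averaged 8.30 CPM with palbociclib and 5.53 CPM in control and was called higher by 0.59 ± 0.144 (edgeR, adjusted p = 0.0114). The sources used here do not state strandedness, so a read of a tRNA and a read of the opposite strand cannot be told apart.

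Pieces of mitochondrial sequence copied into the nuclear genome can take up mitochondrial reads. On chromosome 1, MTATP6P1 (chr1:633696-634376) differed from MT-ATP6 at 10 of 681 bases, and MTCO1P12 (chr1:631074-632616) and MTND2P28 (chr1:629640-630683) were 98.6% and 98.4% identical to their originals. MTATP6P1 averaged 529 ± 44.2 CPM with palbociclib and 386 ± 8.20 CPM in control, with a log2 change of 0.45 ± 0.059 beside 0.44 ± 0.046 for MT-ATP6. MTCO1P12 averaged 289 ± 1.77 CPM with palbociclib and 208 ± 7.01 CPM in control, with a log2 change of 0.48 ± 0.037 beside 0.50 ± 0.031 for MT-CO1. MTND2P28 averaged 261 ± 26.8 CPM with palbociclib and 220.4 ± 28.0 CPM in control and was not called, at 0.24 ± 0.097 (edgeR, adjusted p = 0.0795), beside 0.26 ± 0.043 for MT-ND2. Counts of these copies were 14.0 to 15.9% of those of MT-ATP6, 1.43 to 1.53% of MT-CO1 and 6.99 to 8.90% of MT-ND2 over the 6 libraries. Which genome such reads came from was not tested, and adding the copies' counts to their originals left 13 of the 15 called higher. The next copy by level, MTND4P20, averaged 5.78 ± 0.696 CPM with palbociclib and 4.58 ± 1.25 CPM in control.

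Estimates for the nuclear genes that serve this genome were spread on both sides of 0. Of 23, 9 were called higher, beside 20.1% of all tested genes, 0 lower, beside 18.5%, and 14 not called, with a median log2 fold change of 0.18. With library size alone 5 were called higher and 5 lower, with a median of 0.07. The balance of directions among them thus rested on the scaling, which also moved it over all 21218 genes tested, to 3094 higher and 5479 lower. The calls of FASTK, SUPV3L1, TEFM and TFB2M were lost with library size alone. ELAC2, TRMT10C, TBRG4 and FASTKD2 were called higher under all 18 alternatives tried.

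The largest called changes among the nuclear members were in 2 of 3 genes for cutting tRNAs out of the precursor. TRMT10C (chr3:101561868-101566446) is the tRNA-binding methyltransferase subunit of mitochondrial RNase P, which makes the cut at the 5′ end of each tRNA. It had 57.6, 57.5 and 56.3 CPM with palbociclib, against 34.0, 31.4 and 39.9 CPM in control. The palbociclib libraries were nearly equal and all above the control libraries, and the log2 fold change was 0.70 ± 0.082 (edgeR, adjusted p = 1.92e-04). ELAC2 (chr17:12991612-13018065), the RNase Z that cuts the 3′ end, had 152, 156 and 157 CPM with palbociclib, against 109, 103 and 94.0 CPM in control. Its groups were also apart, and the log2 fold change was 0.61 ± 0.055 (edgeR, adjusted p = 4.51e-05).

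PRORP, the nuclease subunit of the same RNase P, gave no clear value. It had 35.7, 27.3 and 52.1 CPM with palbociclib, against 20.2, 37.9 and 25.3 CPM in control. The groups overlapped widely, and the log2 fold change of 0.46 ± 0.265 was not called (edgeR, adjusted p = 0.206). In the annotation 40.9% of its exon bases are shared with another gene on the same strand, so the counting may have split its reads differently in each library; that was not tested. HSD17B10, the third RNase P subunit, averaged 134 ± 2.27 CPM with palbociclib and 109 ± 5.31 CPM in control and was called higher by 0.30 ± 0.045 (edgeR, adjusted p = 8.97e-04); it is not among the 38 and was picked after its value was seen.

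Factors that hold, tail or destroy the mature RNAs were mixed. TBRG4 (chr7:45100100-45111718), also called FASTKD4, stabilises several mitochondrial mRNAs. It had 123, 126 and 124 CPM with palbociclib, against 91.9, 85.2 and 84.4 CPM in control, with a log2 change of 0.51 ± 0.045 (edgeR, adjusted p = 3.69e-05). FASTKD2 (chr2:206765357-206792509), which binds the large rRNA and is needed to assemble the large ribosomal subunit, had 57.9, 59.9 and 55.8 CPM with palbociclib, against 48.6, 42.7 and 46.4 CPM in control. Neither gene's groups overlapped, and FASTKD2 changed by 0.34 ± 0.059 (edgeR, adjusted p = 2.01e-03). FASTK, the founding member of that family and needed for MT-ND6 mRNA, was called higher by 0.17 ± 0.046 (edgeR, adjusted p = 0.0196), but its call was lost without control library 1, palbociclib library 1 or palbociclib library 3, with edgeR adjusted p from 0.0552 to 0.0648.

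LRPPRC and SLIRP form the complex that protects most mitochondrial mRNAs and promotes their tailing. LRPPRC (chr2:43886224-43996226) had 247, 256 and 261 CPM with palbociclib, against 271, 269 and 287 CPM in control. All palbociclib libraries lay below all control libraries, and the log2 fold change of -0.11 ± 0.041 just missed the threshold (edgeR, adjusted p = 0.0554). It was called lower with library size alone, at -0.23, and also with the DESeq2 Wald test and with limma on FPKM. With a minimum count of 40 and with counts divided by 4 it was called lower too (edgeR, adjusted p = 0.0234 and 0.0223 in that order). Under 11 of the 18 alternatives it was not called. SLIRP had 17.5, 17.6 and 12.5 CPM with palbociclib, against 11.9, 9.89 and 14.5 CPM in control. Its groups overlapped, with palbociclib library 3 low and control library 3 high. The log2 fold change of 0.39 ± 0.175 was not called (edgeR, adjusted p = 0.114), but it was without control library 3, at 0.54, or without palbociclib library 3, also at 0.54 (edgeR, adjusted p = 0.0446 and 0.0327 in that order). The DESeq2 Wald test called it too (DESeq2, adjusted p = 0.0476).

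The poly(A) polymerase MTPAP averaged 42.4 ± 2.03 CPM with palbociclib and 35.8 ± 4.28 CPM in control and was not called (edgeR, 0.24 ± 0.086, adjusted p = 0.0516). Without control library 3 it was called higher, at 0.34 (edgeR, adjusted p = 5.05e-03). It was also called higher with DESeq2 size factors, the DESeq2 Wald test, a minimum count of 40 and counts divided by 4, with adjusted p from 0.0191 in DESeq2 to 0.0498 in edgeR. SUPV3L1 and PNPT1 are the helicase and the exonuclease of the mitochondrial RNA degradosome. SUPV3L1 averaged 64.8 ± 1.53 CPM with palbociclib and 57.7 ± 0.939 CPM in control and was called higher by 0.17 ± 0.042 (edgeR, adjusted p = 0.0139), a call lost without palbociclib library 2 (edgeR, adjusted p = 0.0523). PNPT1 averaged 62.8 ± 2.38 CPM with palbociclib and 58.0 ± 3.11 CPM in control, with overlapping groups, and was not called (edgeR, 0.12 ± 0.054, adjusted p = 0.129).

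**Figure D4:**
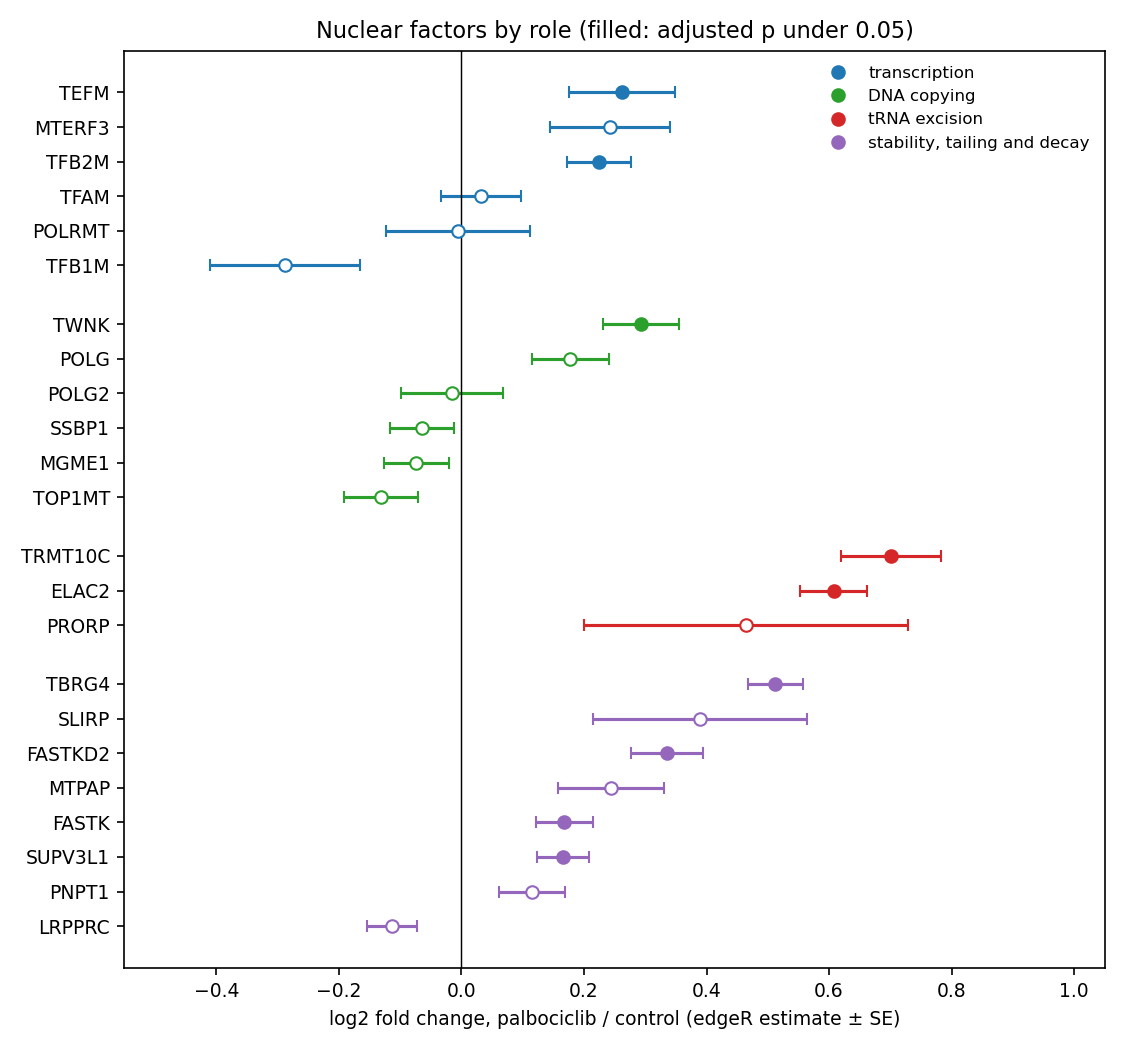
Log2 fold change (palbociclib over control, edgeR estimate ± SE) of the 23 nuclear members grouped by role; filled points had an adjusted p under 0.05. TRMT10C at 0.70 and ELAC2 at 0.61 lie farthest to the right, and the lowest, TFB1M at -0.29, was not called.

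The core transcription factors showed no common direction. POLRMT, the polymerase, had 63.5, 58.0 and 44.4 CPM with palbociclib, against 59.4, 54.7 and 52.5 CPM in control. Palbociclib library 3 was the lowest of the 6 and palbociclib library 1 the highest, and the log2 fold change was -0.0056 ± 0.117 (edgeR, adjusted p = 0.977); without palbociclib library 3 it was 0.13. TFAM, which packages mitochondrial DNA and opens transcription, had 84.8, 92.3 and 84.5 CPM with palbociclib, against 84.4, 78.8 and 92.7 CPM in control. Its groups overlapped throughout, and its log2 fold change of 0.03 ± 0.065 (edgeR, adjusted p = 0.739) became -0.08 with library size alone.

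TFB2M, which melts the promoter, averaged 59.3 ± 2.27 CPM with palbociclib and 50.8 ± 2.35 CPM in control and was called higher by 0.22 ± 0.053 (edgeR, adjusted p = 9.11e-03). TEFM, the elongation factor, averaged 16.9 ± 0.611 CPM with palbociclib and 14.1 ± 0.766 CPM in control and was called higher by 0.26 ± 0.086 (edgeR, adjusted p = 0.0401), but leaving out any library other than control library 3 ended that call, with edgeR adjusted p from 0.0593 to 0.124. TFB1M, the methyltransferase of the small rRNA, averaged 7.69 ± 0.296 CPM with palbociclib and 9.38 ± 1.07 CPM in control. Its palbociclib libraries lay below its control libraries, the difference was not called (edgeR, -0.29 ± 0.123, adjusted p = 0.0974), and without control library 2 it was called lower at -0.38 (edgeR, adjusted p = 0.0412). It was also called lower in the 3 limma fits on FPKM (limma, adjusted p from 0.0222 to 0.0390). In addition, 30.7% of TFB1M's exon bases are shared with TIAM2 on the opposite strand and 14.4% with another gene on the same strand. MTERF3, a member of the family of the transcription terminator MTERF1, averaged 21.4 ± 2.62 CPM with palbociclib and 18.1 ± 0.206 CPM in control and was not called (edgeR, 0.24 ± 0.098, adjusted p = 0.0829); without palbociclib library 2 it was, at 0.32 (edgeR, adjusted p = 0.0350).

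Of the factors that copy the DNA, 1 of 6 was called higher, beside 20.1% of all tested genes. TWNK, the replicative helicase, had 52.0, 45.3 and 51.3 CPM with palbociclib, against 39.6, 41.3 and 40.5 CPM in control. The groups did not overlap, with palbociclib library 2 nearest the control libraries, and the log2 fold change was 0.29 ± 0.062 (edgeR, adjusted p = 5.36e-03). That call was lost in all 3 limma fits on FPKM (limma, adjusted p from 0.0550 to 0.0710). POLG, the catalytic subunit of the DNA polymerase, averaged 61.8 ± 1.94 CPM with palbociclib and 54.7 ± 4.44 CPM in control and was not called (edgeR, 0.18 ± 0.063, adjusted p = 0.0529). It was called higher without control library 2, at 0.25 (edgeR, adjusted p = 9.38e-03), and with the DESeq2 Wald test, at 0.18 (DESeq2, adjusted p = 0.0319).

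Its accessory subunit POLG2 averaged 24.0 ± 0.615 CPM with palbociclib and 24.3 ± 2.33 CPM in control, a log2 change of -0.02 ± 0.083 (edgeR, adjusted p = 0.907). The log2 fold change was -0.06 ± 0.052 for SSBP1, which coats single-stranded DNA, -0.07 ± 0.053 for MGME1, an exonuclease that trims flaps, and -0.13 ± 0.061 for TOP1MT, a topoisomerase. None of these 3 was called, with edgeR adjusted p from 0.122 to 0.382. With library size alone LRPPRC, TFB1M, SSBP1, MGME1 and TOP1MT were the 5 called lower. MGME1 and TOP1MT were also called lower in the 3 limma fits on FPKM (limma, adjusted p from 0.0169 to 0.0291). SSBP1 was called lower in the limma fits with the mean-variance trend (limma, adjusted p = 0.0353 and 0.0346) and not in the fit without it.

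**Figure D5:**
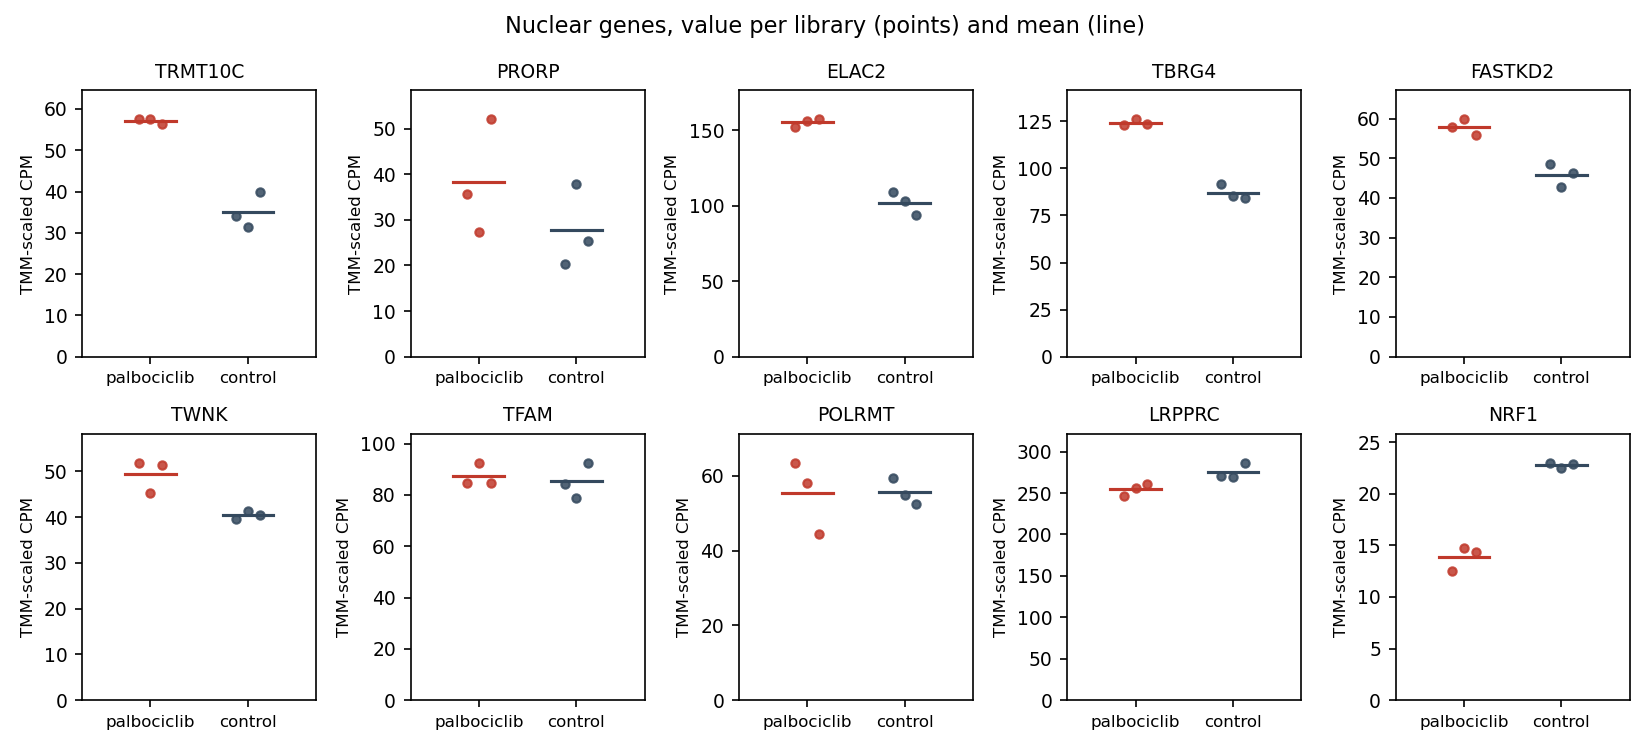
TMM-scaled CPM per library of 9 nuclear members and of NRF1, with palbociclib left of control; points are libraries and lines are means of 3, and every axis starts at 0. TRMT10C, ELAC2, TBRG4, FASTKD2 and TWNK lie higher with palbociclib without overlap, LRPPRC and NRF1 lower without overlap, and PRORP, TFAM and POLRMT overlap.

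Many nuclear genes for mitochondrial proteins carry sites for the GABP and NRF1 transcription factors near their start. The 3 nuclear members with the largest called changes each hold the GABP core CCGGAAG, read on both strands, more than once, so 80 bases of each promoter are shown with those matches in capitals. They come from RefSeq's promoter windows on GRCh38.p14, which run from 250 bases before to 50 bases after a gene's start, and lie at chr3:101561793-101561872 (plus strand), chr17:13018195-13018274 (minus strand) and chr7:45111742-45111821 (minus strand).
TRMT10C: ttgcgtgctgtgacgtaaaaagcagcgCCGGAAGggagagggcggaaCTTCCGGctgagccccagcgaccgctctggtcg
ELAC2: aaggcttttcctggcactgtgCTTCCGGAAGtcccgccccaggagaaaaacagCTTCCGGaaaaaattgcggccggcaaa
TBRG4: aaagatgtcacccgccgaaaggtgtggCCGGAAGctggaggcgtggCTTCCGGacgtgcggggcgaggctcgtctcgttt
TRMT10C and TBRG4 had 2 matches each and ELAC2 had 3, a pair of which overlap each other. How many of all genes hold more than 1 match was not counted, so the repeats in these 3 promoters have no background beside them. Among 20 nuclear members with a window used here, 9 held at least 1 match, 4 of the 8 called higher and 5 of the 12 not called, against 12.2% of all 27305 genes in the same table. A gene counts when any of its windows holds a match; 3 of the 20 members have more than 1 window, and of the 17 with a single window 7 held a match. Counted by window, 10.3% of the 35116 held one. The NRF1 motif GCATGCGC, also read on both strands, was in 4 of the 20, of which 1 was called, against 3.68% of all genes. A match here is a string of letters and not a measured site, and it does not show which factor, if any, binds there.

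Nuclear regulators of mitochondrial biogenesis went down where they passed the test. Of 16 tested, 0 were called higher and 7 lower, with a median log2 fold change of -0.21 (20.1% of all tested genes were called higher and 18.5% lower). NRF1, a transcription factor for genes of the respiratory chain and of TFAM, had 12.50, 14.71 and 14.32 CPM with palbociclib, against 23.02, 22.53 and 22.88 CPM in control. The groups were far apart, and its log2 fold change was -0.72 ± 0.088 (edgeR, adjusted p = 2.45e-04). GABPB1, a subunit of GABP, was called lower, at -0.59 ± 0.096 (edgeR, adjusted p = 1.40e-03). The general factor SP1 and the zinc finger factor YY1 were called lower as well, at -0.51 ± 0.039 for SP1 and -0.34 ± 0.045 for YY1 (edgeR, adjusted p = 1.76e-05 and 4.16e-04 in that order).

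Among 40 other factors of mitochondrial RNA processing, modification and decay, 17 were called higher and 6 lower, with a median log2 fold change of 0.15. Over all tested genes 20.1% were called higher and 18.5% lower. With library size alone the counts for the 40 were 13 and 11, beside 3094 higher and 5479 lower of the 21218 genes tested. FASTKD1 and FASTKD5, RNA-binding relatives of FASTK, were called higher by 0.65 ± 0.053 and 0.55 ± 0.048 (edgeR, adjusted p = 2.49e-05 and 3.57e-05 in that order). PDE12, which removes tails from mitochondrial RNA, was called higher by 0.49 ± 0.046 (edgeR, adjusted p = 5.73e-05). MTO1, which modifies the wobble base of some mitochondrial tRNAs, was called lower, at -0.65 ± 0.051 (edgeR, adjusted p = 1.93e-05), with 36.65, 34.85 and 38.16 CPM with palbociclib, against 56.97, 56.71 and 58.31 CPM in control.

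Among 23 mitochondrial translation factors, 7 were called higher and 6 lower, with a median log2 fold change of 0.02. These counts stand beside 20.1% of all tested genes called higher and 18.5% lower. With library size alone the counts were 5 and 10, beside 3094 higher and 5479 lower of the 21218 genes tested. GFM2, a ribosome recycling factor, and GFM1, an elongation factor, were called higher by 0.51 ± 0.045 and 0.27 ± 0.042, and LETM1, an inner membrane ion exchanger, by 0.47 ± 0.042. MTIF2, the initiation factor that brings in the first tRNA, was called lower, at -0.39 ± 0.055. For these 4, edgeR's adjusted p ran from 3.94e-05 to 9.23e-04.

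Among 17 other factors of mitochondrial DNA maintenance, 5 were called higher and 7 lower, with a median log2 fold change of -0.15, beside 20.1% of all tested genes higher and 18.5% lower. With library size alone 4 were called higher and 10 lower, with a median of -0.26, beside 3094 higher and 5479 lower of the 21218 genes tested. SLC25A36, the carrier of pyrimidine nucleotides into mitochondria, had 111, 114 and 109.8 CPM with palbociclib, against 243, 244 and 275 CPM in control, a log2 change of -1.19 ± 0.054 (edgeR, adjusted p = 8.61e-07). All palbociclib libraries lay far below all control libraries. LONP1, a protease of the matrix, was called lower as well, at -0.81 ± 0.055 (edgeR, adjusted p = 8.58e-06). ATAD3B, an inner membrane ATPase, and MPV17, an inner membrane protein needed to keep mitochondrial DNA, were called higher by 0.48 ± 0.051 and 0.42 ± 0.051 (edgeR, adjusted p = 1.16e-04 and 2.41e-04 in that order).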

How the data were processed

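Polyadenylated RNA of LNCaP cells was sequenced in 3 palbociclib and 3 control libraries, grouped by the labels' titles. The authors deposited an estimated count and an FPKM value per gene and library. Per the submitters' processing notes, the tools were cutadapt 1.9, HISAT2 2.0.4 (genome hg38), StringTie 1.3.4d and edgeR; the series' design text names fastp for trimming and describes merging the sample assemblies. The annotation release and strandedness are not given in the sources used here. Every estimated count the authors deposited was already whole, so rounding changed none. Among small values, 4 and 8 occurred more often than the values next to them, as when a fragment adds about 4. No columns of per-sample values (0) lacked a sample. No library repeated another of its group: on counts divided by 4, chi-square per degree of freedom was 2.98 to 5.18. Pairs across the groups were not checked.

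Genes were kept by filterByExpr (minimum count 10, minimum total 15), leaving 21218 genes of 35430. After TMM scaling (trimmed mean of M-values) they were tested with edgeR 4.0.16's quasi-likelihood F-test in R 4.3.3, over all 6 libraries, Benjamini-Hochberg adjustment across these genes and a threshold of 0.05. SE was derived as |log2 fold change| over the square root of the F statistic. CPM is TMM-scaled. The precision of a value is its spread over 3 libraries; amplified fragments carry no molecular identifiers. Shares and ratios were tested by exact permutation over libraries (smallest p 0.1). limma 3.58.1 on log2(FPKM + 1) or log2(FPKM + 0.1), DESeq2 1.42.0, other filters, library size alone, a replicate block and leaving out each library were alternatives. The edgeR steps were tested on simulated data.

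All 38 members were named whatever their result, with up to 4 genes of each further list by lowest adjusted p (mean at least 1 CPM) and up to 4 nuclear copies by level. The members and lists were chosen with earlier results of these data known. Gene coordinates are those of the deposited table on hg38, and 28 of the 38 members have the same start and end in GENCODE 44, which gave the exon overlaps. Mitochondrial sequences are of hg38, and promoter windows of RefSeq on GRCh38.p14.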

Additional observations from a re-analysis of the deposited data

How the results depend on the processing

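The count of 13 mitochondrially encoded members called higher became 4 with limma on log2(FPKM + 1) and 4 with log2(FPKM + 0.1), and 12 with limma without its mean-variance trend, an alternative added after the data were seen, so the trend setting accounts for most of that loss. Leaving out each library gave 13 to 14, and none was called lower under any alternative. The 9 nuclear members called higher became 5 with library size alone and 4 under each of the 3 limma fits, and the 0 called lower became 5 with library size alone, 1 with the DESeq2 Wald test, 1 with a minimum count of 40, 1 with counts divided by 4, 5 with limma on log2(FPKM + 1), 5 with log2(FPKM + 0.1) and 4 without the trend. Leaving out each library gave 7 to 11 nuclear members higher and 0 to 1 lower. Over 38 members and 18 alternatives, 584 of the fold changes kept direction and side of the threshold, 49 lost the threshold, 37 gained it and 14 changed sign, and 10 members kept both under every alternative.

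The changes of sign were in values near 0, and the cause was not tested. MT-RNR1 was -0.0776 with library size alone and -0.0753 in each limma fit. TFAM was -0.0791 with library size alone, -0.0707 with limma on log2(FPKM + 1), with or without the trend, and -0.0746 with log2(FPKM + 0.1). Leaving out each library gave -0.0217 to 0.0970 for TFAM, -0.115 to 0.132 for POLRMT and -0.0816 to 0.0574 for POLG2. It gave -0.0248 to 0.0779 for the difference in the log2 ratio of MT-ND6 to heavy strand mRNAs. For the difference in the share of mitochondrial mRNA, in percentage points, it gave -0.0060 to 0.0758 for MT-ND3, -0.115 to 0.387 for MT-ND4L, -0.0992 to 0.0146 for MT-ND5, -0.0216 to 0.0599 for MT-ND6 and -0.0082 to 0.102 for MT-ATP6.

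Both groups carry replicate numbers 1 to 3, but same-numbered libraries did not deviate together (correlations -0.0079, -0.0341 and -0.0311). Such correlations cannot settle whether the numbers pair the samples. With the replicate block, 14 mitochondrially encoded members were called higher and 0 lower, 8 nuclear members higher and 0 lower, and 3855 genes higher and 3438 lower over all.

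With 3 libraries a group, the exact permutation test cannot fall below 0.1, so shares and ratios could not pass a threshold of 0.05. TFB1M, with a mean under 10 CPM in each group, was the thinnest member.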
